A study of Mus musculus with 6 samples.

Results

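The potassium channel and HCN channel family was described across wild-type and Nxnl2 knockout mouse retina. Its members were the genes whose symbols start with Kcn followed by a class letter and number, together with Hcn genes. Kcnj10 was left out by the rule. Only probe sets that name exactly 1 gene were used, and each gene was represented by its probe set of highest mean over the 6 arrays. This gave 85 of 18193 measured genes, on 168 of 45037 probe sets. Of the 85, 82 encode channels or channel subunits. The other 3 are the noncoding RNAs Kcnq1ot1, Kcnmb4os1 and Kcnmb4os2, which match the symbol rule and are not channels. Family members that no such probe set names are not analysed here.

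Potassium channels set the resting potential of retinal neurons and glia and end each depolarisation, and HCN channels carry a cation current that opens on hyperpolarisation. In photoreceptors, outward potassium current through the inner segment balances the dark current that enters the outer segment. Silent subunits such as Kcnv2 form no channel alone and change the gating of the Kv2 channels they join. Variants of human KCNV2 are known for a cone dystrophy with an enlarged rod response.

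By their labels, all arrays carried RNA of retina dissected away from the pigment epithelium. The labels give BALB/c AJ mice at postnatal day 40 kept on a light and dark cycle. The wild-type group (genotype wt/wt) had 3 arrays, and 3 more were labelled with the homozygous knockout of Nxnl2, which encodes a thioredoxin-like protein of photoreceptors. The sources used here do not give how the knockout allele was made or whether animals were pooled. They also leave unsaid whether each replicate is its own animal, so the p-values reflect the spread of these samples alone, and that spread may be technical.

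Values are log2 signals, on which 1 unit is a doubling, and the number of arrays limits their precision. The brighter Nxnl2 probe set read 11.38, 11.45 and 11.42 in wild type. Knockout replicates 1 and 2 read 3.78 and 3.73, whereas 9.21 was read from the array labelled knockout replicate 3. That array therefore goes against its label, and its correlation with each of the other arrays was 0.848 to 0.853, against 0.994 to 0.996 among those 5. Wild type was compared with knockout replicates 1 and 2, and the array labelled knockout replicate 3 is given by itself. The retina label was checked against markers. The 4 measured rod markers averaged 13.92 to 14.01 in the 5 arrays and 4.30 in the array labelled knockout replicate 3, where all 7 olfactory and nasal markers lay more than 2 units above the other 5. On these markers the retina label of that array does not hold, so its channel values are not read as those of retina.

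Between the 5 arrays the mean rod level thus spanned under 0.1 unit, and cone markers averaged 10.80 to 11.23. In the comparison of these arrays limma called 0 of 54 measured marker genes, and 2 (Adcy3 and Tyr) had an unadjusted p under 0.05. The median difference, knockout minus wild type, lay between -0.09 and 0.14 for the cone, bipolar, amacrine, horizontal, ganglion, Müller glia, and vessel and pericyte lists. It was 0.00 for the rods, 0.09 for the olfactory and nasal list, -0.35 for 5 pigment epithelium markers, -0.77 for 5 lens markers and 0.90 for 5 fast muscle markers. Lens markers were highest in wild-type replicate 2, with an average of 9.24 against 6.77 to 7.10 elsewhere. Muscle markers were highest in knockout replicate 2, with 7.07 against 4.72 to 5.21. The part of these tissues in the channel values was not tested.

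In wild-type retina the brightest channel probe set was that of Kcnj14, an inward rectifier subunit (Kir2.4), which read 11.62, 11.88 and 11.85. It ranked 1 among the members in each of the 5 arrays. Signals of different probe sets do not measure relative transcript amounts, since probes differ in affinity, so this order is one of probe set signals only. Kcna5, a delayed rectifier of the Kv1 class, followed at 10.13 ± 0.11 (SD, n = 3). Kcnab2, a cytoplasmic beta subunit of Kv1 channels, read 10.05 ± 0.19 (SD, n = 3). The wild-type ranges of Kcna5 and Kcnab2 overlapped, while Kcnj14 stood 1.66 units above Kcna5 in the mean.

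Next came Kcnj9, a subunit of G protein-gated inward rectifiers, at 9.61 ± 0.11 (SD, n = 3), and its wild-type range did not overlap that of Kcnab2. From Kcnj9 down to the gene at rank 14, each wild-type range overlapped that of the next gene in the order, so neighbours there do not differ beyond their spread. These genes cover several classes. Kcne2, a single-pass auxiliary subunit, had a mean of 9.44, the calcium-activated BK channel Kcnma1 one of 9.42, and Kcnd3, a channel of the rapidly inactivating Kv4 class, one of 9.38. Kcnc1 and Kcnc2, fast delayed rectifiers of the Kv3 class, had means of 9.32 and 9.08. The noncoding RNA Kcnq1ot1 lay between them at 9.25 and Kcnv2 at 9.20. Kcnab1, another Kv beta subunit, closed the leading 12 at 8.83. Of these 12, 11 were among the leading 12 in each of the 5 arrays.

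**Figure D1:**
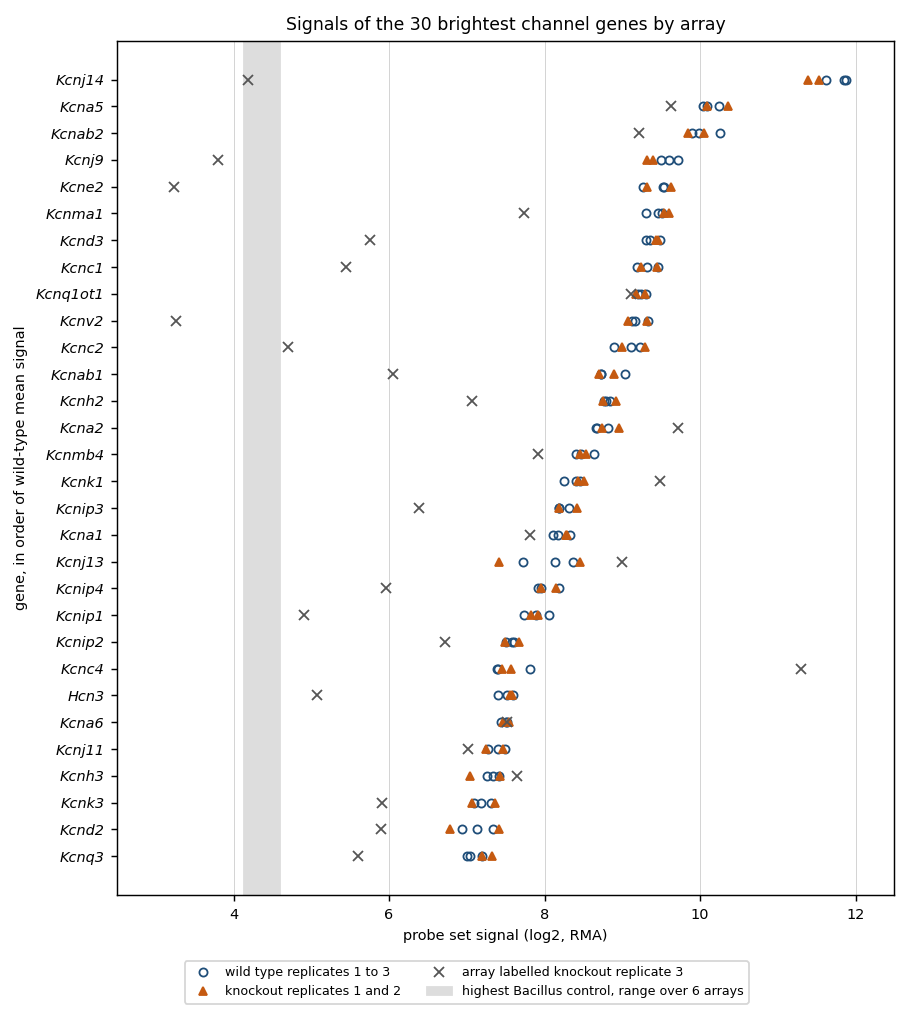
Log2 probe set signal (horizontal axis) of the 30 brightest members, in the order of their wild-type means. Open circles are the 3 wild-type arrays, triangles knockout replicates 1 and 2, crosses the array labelled knockout replicate 3, and the grey band the range over arrays of the highest Bacillus control. Circles and triangles spread most for Kcnj13, from 7.41 to 8.46. The crosses of Kcnj14, Kcnj9, Kcne2 and Kcnv2 lie at or below the band.

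A gene was counted as above background where each wild-type value exceeded the highest of 15 Bacillus control probe sets on the same array, which match no mouse transcript. This held for 62 of the 85 members (72.9%), against 72.2% of all genes. For 16 members every wild-type value was at or below that control, Kcnj15, Kcnj16, Kcng1, Kcne3 and Kcnk16 among them, and these have no order among themselves. Wild-type means spanned 2.73 to 11.78 with a median of 5.73, and the median over all genes was 6.79. The SD over wild-type arrays had a median of 0.12 and was highest, at 0.33, for Kcnj13.

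Every class had members above background. All 7 Kv1 members passed, as did the 3 members each of Kv3 and Kv4 and both HCN members. In the large inward rectifier class 9 of 14 were above background, and in the two-pore class, whose channels leak potassium at rest, 7 of 12. Kcnk1, a two-pore channel, was the brightest of its class at 8.37. The ERG channel Kcnh2 led the EAG, ERG and ELK class at 8.80, and Kcnq3, a subunit of the M current, led the KCNQ class at 7.08. Of 9 silent Kv subunits 5 were above background, and Kcnv2 was the brightest. Of 15 auxiliary subunits 12 were above background.

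Promoter sequence was available from RefSeq (GRCm38.p6) for 64 of the 85 members, as windows of 300 bases from 250 before to 50 after a transcript start. The letters TAATCC, the core bound by the photoreceptor factors CRX and OTX2, were searched on both strands, as were those of the TATA box, TATAAA. The first of these motifs occurs in 7.06% of 32851 windows of all genes and in 2 of 89 member windows, those of Kcnj9 and Kcng4. The TATA box letters occur in 13.6% and in 5 of 89, of Kcnab1, Kcnj13, Kcnj15, Kcnj16 and Kcnj9. The windows below are shown for Kcnj9, which holds both, for Kcng4, and for Kcnj15, whose probe sets were all high in 1 array. Each is written 5′ to 3′ on the gene's strand with the matches in capitals and positions counted from 1 at its 5′ end. A match is a description of letters, not a site. Kcnj9 lies on the minus strand at chr1:172329273-172329572, with TATAAA at positions 83 to 88 of the window and TAATCC on the opposite strand, read as GGATTA, at 154 to 159. Kcng4 lies on the minus strand at chr8:119635631-119635930, with TAATCC at 246 to 251. Kcnj15 lies on the plus strand at chr16:95257308-95257607, with TATAAA on the opposite strand, read as TTTATA, at 260 to 265.
Kcnj9: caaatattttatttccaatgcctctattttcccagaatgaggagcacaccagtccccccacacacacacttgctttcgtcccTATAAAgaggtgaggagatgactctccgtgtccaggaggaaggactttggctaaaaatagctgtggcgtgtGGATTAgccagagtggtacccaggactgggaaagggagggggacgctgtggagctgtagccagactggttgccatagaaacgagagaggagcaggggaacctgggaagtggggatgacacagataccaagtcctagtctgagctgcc
Kcng4: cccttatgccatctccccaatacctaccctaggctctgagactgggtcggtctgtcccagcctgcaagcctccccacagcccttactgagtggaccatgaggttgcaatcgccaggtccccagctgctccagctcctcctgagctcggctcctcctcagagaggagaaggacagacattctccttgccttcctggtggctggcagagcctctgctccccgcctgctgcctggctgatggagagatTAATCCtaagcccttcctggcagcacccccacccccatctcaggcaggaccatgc
Kcnj15: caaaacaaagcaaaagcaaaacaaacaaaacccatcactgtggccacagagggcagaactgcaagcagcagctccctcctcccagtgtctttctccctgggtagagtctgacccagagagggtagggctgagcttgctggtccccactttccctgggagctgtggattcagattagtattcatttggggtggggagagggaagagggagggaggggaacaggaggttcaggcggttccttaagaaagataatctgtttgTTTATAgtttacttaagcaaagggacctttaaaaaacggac

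Between wild type and knockout replicates 1 and 2, no channel gene passed the test. With limma fitted on all genes, 0 of 85 members had an adjusted p under 0.05, against 2 of 18193 genes (0.011%), and the lowest adjusted p of a member was 0.999. At an unadjusted p under 0.05 there were 4 members of 85, against 3.45% of all genes. The values of the groups did not overlap for 10 members, 6 of them higher and 4 lower in the knockout. The share over all genes was 16.5%. The median difference, knockout minus wild type, was 0.02 for the members and 0.00 for all genes, and the median size of a difference was 0.07 in both. Differences ran from -0.32 to 0.25.

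The 95% interval of the difference lay within 1.5-fold in both directions for 83 of the 85 members. It reached past 1.5-fold for Kcnj13 and Kcnk6. In bulk tissue, fewer cells of a type and less RNA per cell cannot be told apart, so for members above background these intervals bound the sum of both. For the 23 members not above background in wild type, Kcnk6 among them, a narrow interval says little about the transcript. The median width to either side of the difference was 0.24.

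**Figure D2:**
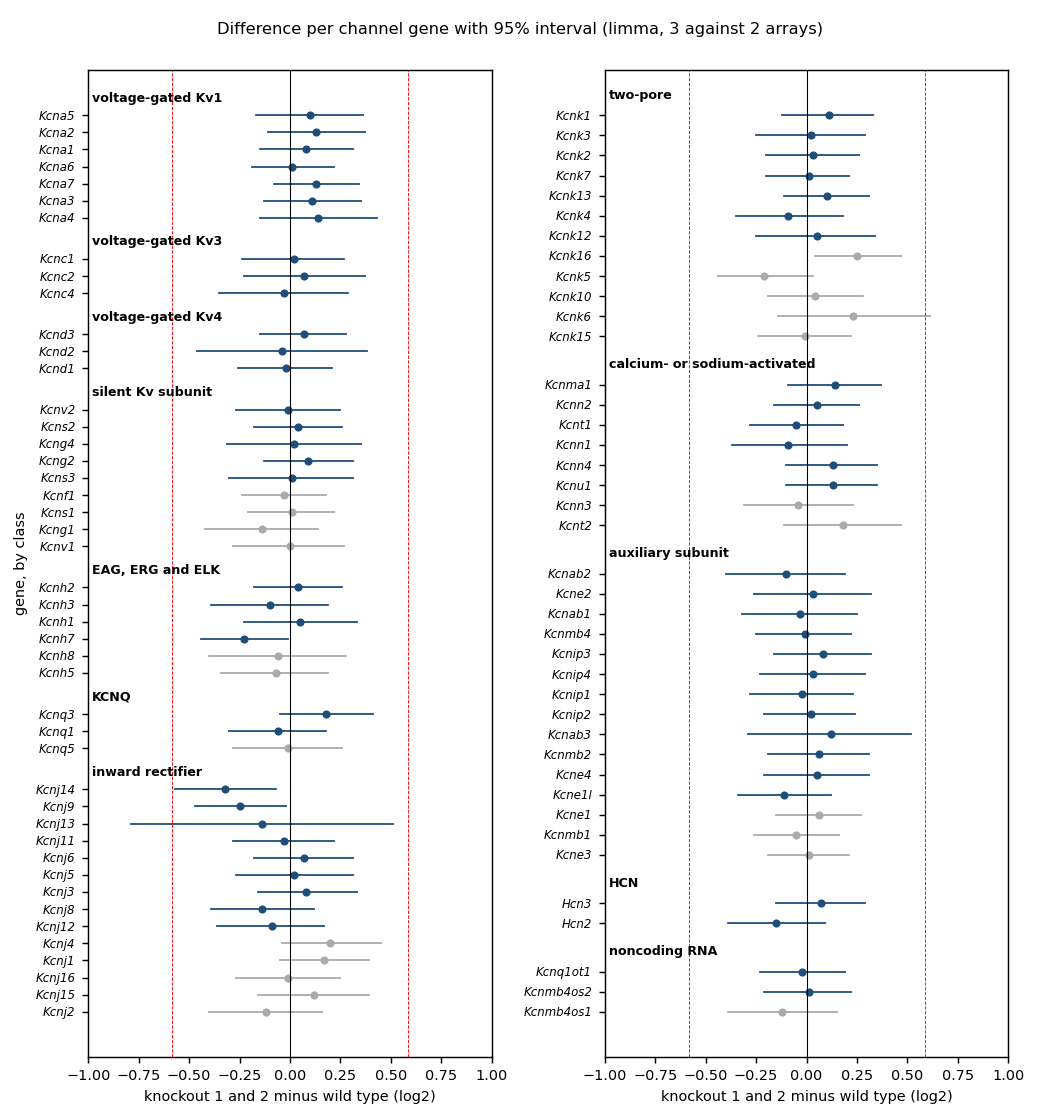
Difference of knockout replicates 1 and 2 from wild type (log2) for each member, 1 point per gene, by channel class. Blue points are above background in all 3 wild-type arrays and grey points are not, and the red dashed lines mark 1.5-fold. All 85 points lie between -0.32 and 0.25, inside the lines.

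Kcnj14 had the largest negative difference. It read 11.62, 11.88 and 11.85 in wild type and 11.39 and 11.53 in the knockout, so that both knockout values lay below the wild-type ones. The difference was -0.32 (SE 0.11, 95% interval -0.57 to -0.07), with an unadjusted p of 0.0181 and an adjusted p of 0.999 by limma. Kcnj9 showed the same order of groups, with 9.50, 9.60 and 9.72 in wild type against 9.39 and 9.32. Its difference was -0.25 (SE 0.10), with an adjusted p of 0.999 by limma. The other Kcnj9 probe sets gave -0.21, -0.05 and 0.00.

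The remaining pair of members with an unadjusted p under 0.05 was dim. Kcnh7, an ERG-class channel, had a mean of 5.03 ± 0.03 (SD, n = 3) in wild type and read 4.71 and 4.90 in the knockout, a difference of -0.23. Kcnk16, a two-pore channel, was not above background in wild type, at 4.15, 4.13 and 4.11, and read 4.47 and 4.30 in the knockout. Neither passed the adjusted test.

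The other members with the smallest p in the negative direction were Kcnk5 at -0.21, Hcn2 at -0.15, Kcnj8 and Kcng1 at -0.14 each, and Kcne1l at -0.11. Of these, Kcnj8 encodes the Kir6.1 subunit of ATP-sensitive channels, known from pericytes. In the positive direction they were Kcnj4 at 0.20, Kcnk6 at 0.23, Kcnq3 and Kcnt2 at 0.18 each, Kcnj1 at 0.17, Kcnma1 at 0.14 and Kcna7 at 0.13. Of both sets, Kcnk5, Kcng1, Kcnj4, Kcnk6, Kcnt2 and Kcnj1 were not above background in wild type, so their differences say little about their transcripts. The second probe sets of Kcnk5 and Kcng1, brighter in the 5 arrays, gave 0.01 and -0.05. Kcnma1 and Kcnq3 were the brightest members of the positive set. Kcnma1 read 9.51, 9.46 and 9.30 in wild type and 9.60 and 9.53 in the knockout, and Kcnq3 read 7.32 and 7.20 in the knockout against 7.08 ± 0.10 (SD, n = 3). The knockout values of Kcnma1 lay above all wild-type ones, by 0.1 unit or less. The other Kcnma1 probe sets, all above background, gave differences from -0.08 to 0.09, and their groups overlapped. With the mean of all probe sets the Kcnma1 difference was 0.01.

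The wild-type and knockout values of Kcnv2 interleaved. It read 9.12, 9.16 and 9.33 in wild type and 9.32 and 9.07 in the knockout. The difference was -0.01 (SE 0.11, 95% interval -0.27 to 0.25). Kcnv2 had 1 probe set, so no second measurement of it was made. Among the HCN channels, Hcn3 read 7.40, 7.52 and 7.59 against 7.56 and 7.58, and Hcn2 read 6.94, 6.82 and 7.03 against 6.86 and 6.69. Their groups overlapped in both cases.

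By class, the median difference lay between -0.06 for the EAG, ERG and ELK class and 0.11 for the Kv1 class. On the probe sets that represent the genes, all 7 Kv1 members had a positive difference, from 0.01 for Kcna6 to 0.14 for Kcna4, and none passed the test. Other Kv1 probe sets above background lay the opposite way, with -0.18 for Kcna4, -0.09 for Kcna6 and -0.07 for Kcna2, so the shared sign depends on the probe set. Kcna5, the brightest, read 10.04, 10.09 and 10.25 against 10.36 and 10.09. Of the 14 inward rectifiers 6 were above and 8 below 0, of the 12 two-pore channels 9 and 3, and of the 15 auxiliary subunits 9 and 6. Over all genes 51.9% of differences were above 0, and over the members 57.6%.

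Kcnj13, the Kir7.1 channel of the pigment epithelium's apical membrane, had the widest spread. It read 8.13, 8.37 and 7.72 in wild type and 7.41 and 8.46 in the knockout. The median deviation of 5 pigment epithelium markers from the wild-type mean was -0.11, 0.46, -0.25, -0.58 and -0.13 in the same arrays. Among these 5 arrays the list was highest in wild-type replicate 2 and Kcnj13 in knockout replicate 2. Both were lowest in knockout replicate 1. Replicate 3 of that label had them apart, with the list at -1.78 and Kcnj13 0.98 above the other 5 arrays. The part of remaining pigment epithelium in the Kcnj13 values was not tested.

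Genes that work beside these channels were taken from a list of transporters, cyclic nucleotide-gated channels and channel partners. Of its 31 names 26 were measured, 24 of these above background, with 10 differences above and 16 below 0 and a median of -0.02. By limma 0 were called and 0 had an unadjusted p under 0.05. Slc24a1, the sodium, calcium and potassium exchanger of rods, had a mean of 12.57 in wild type and 12.53 in the knockout. Cnga1, the rod cyclic nucleotide-gated channel subunit, had means of 11.97 and 12.00. Pex5l, which binds HCN channels, had means of 11.71 and 11.62.

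With all 6 arrays under their labels, 0 of 85 members and 0 of 18193 genes (0%) passed limma's adjusted test, and 0 members had an unadjusted p under 0.05. The lowest adjusted p of a member was 0.745. The knockout group then holds the array labelled knockout replicate 3, whose channel signals differ widely from the others. Kcnj14, for example, read 4.19 in that array.

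The array labelled knockout replicate 3 was set against the mean of the other 5 arrays as values only, since it is 1 array. A size of 2 log2 units, 4-fold, was used. Of the 85 members, 12 (14.1%) lay more than 2 units below, against 4.49% of all genes. A further 10 (11.8%) lay more than 2 units above, against 7.44% of all genes. The other 63 lay within 2 units on the probe sets that represent them. Just inside the limit were Kcnip3 at -1.88 and Kcnk5 at 1.82, and just outside Kcnip4 at -2.07 and Kcnn4 at 2.11. Kcnk5 was not above background in wild type.

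All 12 low members were above background in the 5 arrays, and 8 of them belong to the leading 12 of the order. A fall of more than 2 units needs a signal well above the floor, so the size rule itself favours bright members. Kcnj14, at 4.19, lay -7.46 from the other arrays. Kcne2, Kcnv2, Kcnj9 and Kcng4 read 3.23, 3.26, 3.80 and 3.72 there, all below that array's highest Bacillus control of 4.13, so their differences have a bound only and no order. With values below the control set to it, the bounds were -5.32, -5.07, -5.38 and -2.13. The remaining low members were above the control. The Kv3 channels Kcnc2 and Kcnc1 lay at -4.41 and -3.88. The Kv4 channel Kcnd3 followed at -3.64, its calcium-binding partner Kcnip1 at -2.99 and Kcnip4, of the same partner family, at -2.07. Kcnab1 lay at -2.76 and Hcn3 at -2.46. The rod marker list had its median at -9.62 from wild type in the same array.

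Of the 10 high members, Kcnj15, Kcnj16, Kcng1 and Kcne3 were at or below background in all 5 other arrays and Kcnk6 in 4 of them, so their differences have a bound only. With values below the control set to it, 8 members (9.41%) instead of 10 lay more than 2 units above, against 6.68% of all genes, and Kcnj16 and Kcne3 no longer did. Kcnj15, the Kir4.2 inward rectifier known from epithelia, read 3.66, 3.64 and 3.32 in wild type and 3.64 and 3.68 in the knockout, but 8.02 in this array. Kcnj16, a subunit that joins Kir4 channels, read 6.18 there against a wild-type mean of 3.71. Kcne3, an auxiliary subunit that holds Kcnq1 open in epithelia, read 5.31 against 2.73. Of the members above background in all 5, Kcnq1 lay 2.21 above the others. Kcnn4, the intermediate-conductance calcium-activated channel, lay 2.11 above. The two-pore channel Kcnk2 lay 3.34 above and the G protein-gated Kcnj5 2.46. Kcnc4, of the Kv3 class, stood at 11.30 against 7.40, 7.39 and 7.81 in wild type, 3.78 above the others. The two-pore channel Kcnk6 read 6.69 there against a wild-type mean of 3.92, and the silent subunit Kcng1 6.63 against 3.69. The Kcng1 probe set was chosen over a second one through its value in this array, and the second was not high there.

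**Figure D3:**
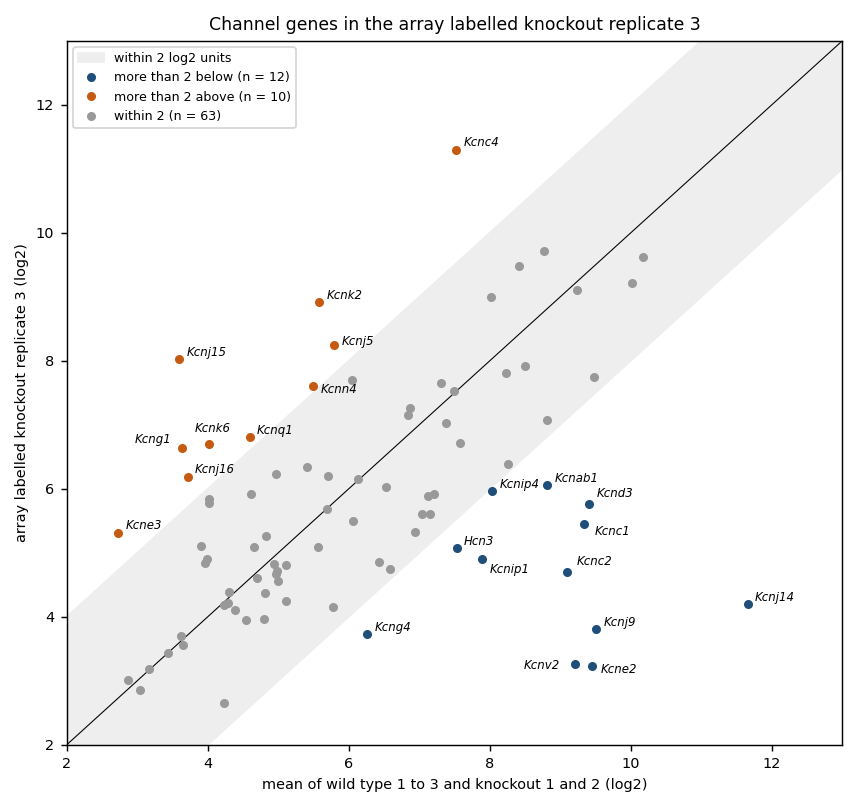
Log2 signal of each member in the array labelled knockout replicate 3 (vertical axis) against its mean over the other 5 arrays (horizontal axis), with named points for the members over 2 log2 units away. The 12 low members lie at the lower right and the 10 high members at the upper left, among them Kcnj14 at -7.46 and Kcnc4 at 3.78. The highest Bacillus control read 4.13 in the array on the vertical axis, and points under it have no exact difference.

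For 10 members the value of that array lay inside the range of the other 5, among them Kcna6 at 7.52. Some bright members lay outside by a smaller amount, with Kcna5 at 9.62, which is -0.54 from the others, and Kcnq1ot1 at 9.11, which is -0.13 from them. The Kv3 class held both directions, with Kcnc1 and Kcnc2 low and Kcnc4 high. In the companion list 11 genes lay more than 2 units below and 3 above. Slc24a1 read 3.18 and Cnga1 3.13 in that array, while Slc12a2, the sodium, potassium and chloride cotransporter, read 12.26 against a wild-type mean of 9.71. Lrrc26, an auxiliary subunit of BK channels, read 8.83 against 3.87.

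Several probe sets name the same gene for 46 of the 85 members, up to 6 for Kcnq1ot1, and 39 have 1. Of the 168 probe sets, 107 were above background. By limma 0 of 168 were called, against 3 of the 34945 that name 1 gene (0.00858%), and 3 of 168 had an unadjusted p under 0.05, against 2.84%. For 8 of 27 genes with several probe sets above background, all of them lay in 1 direction between knockout and wild type. Over these 27 genes, the brightest and dimmest such probe set lay a median of 1.49 units apart, and 4.25 for Kcnj9. In the array labelled knockout replicate 3 the probe sets above background had the same sign for each of Kcnab1, Kcnc1, Kcnc4, Kcnd3, Kcnip1, Kcnip4 and Kcnj9. Their sizes differed, from -3.88 to -0.04 for Kcnc1. Some members counted within 2 units had another probe set past that limit in the same array. Those above background were of Kcnh3 (2.31 and 2.33, chosen 0.35), Kcnmb2 (3.20, chosen 1.65) and Kcnip3 (-2.06, chosen -1.88). Those not above background in wild type were of Kcnq1ot1 (2.90, chosen -0.13) and Kcnk10 (2.54, chosen 0.91). All 3 Kcnj15 probe sets were at or below background in the other arrays and high there, at 8.02, 8.93 and 7.94. The second probe sets of Kcng1 and Kcnj5, both not above background in wild type, were not high there and lay only 0.09 and 0.07 above the other arrays. For Kcng1 the choice came through that array, since in the other 5 the chosen probe set averaged 3.63 and the second 3.84. The same held for Kcnk5, at 4.02 and 4.30, and for Kcnj3, at 5.56 and 5.58. The Kcna4 probe sets both averaged 5.11 in those 5 arrays. The chosen one read 4.25 and the other 3.54 in the array labelled knockout replicate 3, which settled the choice.

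**Figure D4:**
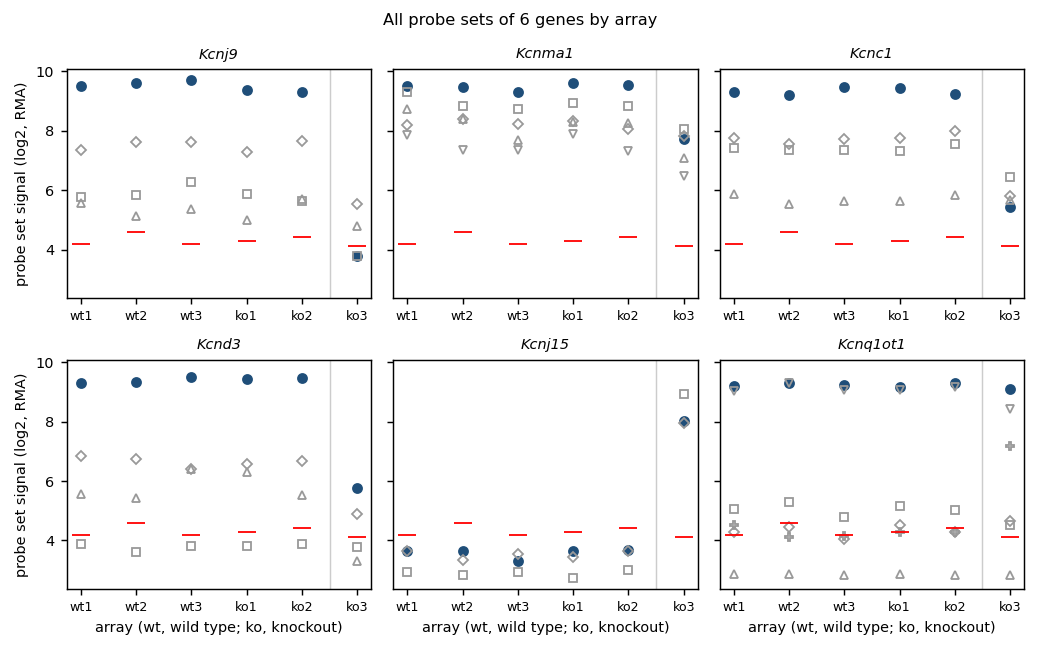
Log2 signal (vertical axis) of every probe set of 6 genes in each array (wt, wild type; ko, knockout), with the array labelled knockout replicate 3 right of the vertical line. Dark filled circles are the probe set that represents the gene, grey symbols its other probe sets, and red dashes the highest Bacillus control of each array. Probe sets of Kcnj9 differ by 4.25 units in wild type, and those of Kcnj15 are all high in the last array.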

How the data were processed

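RNA labelled as retinal, of 3 wild-type and 3 knockout-labelled samples, was hybridised as biotin-labelled cRNA to one-colour Affymetrix arrays, per the labels' protocols. The authors deposited log2 values from RMA, per the submitters' processing notes. RMA subtracts background, brings arrays to a common scale and reduces the probes of a probe set to 1 value. The sources used here do not give its software, version or chip definition. It gives the arrays nearly the same distribution and no detection calls. No value column was left unused (0), and the deposited log2 values were not scaled again.

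After removal of 64 control probe sets, 45037 remained, of which 34945 name 1 gene in the platform annotation. Groups were compared by limma 3.58.1 (lmFit and eBayes) in R 4.3.3 on all 18193 genes, two-sided, and calls were made at a Benjamini-Hochberg adjusted p under 0.05. Python 3.11.15 with matplotlib 3.10.9 drew the figures. The procedure was also run on simulated arrays with independent normal noise. Those hold no carried-over tissue and no array of another profile, so that run does not show how the procedure behaves on these data. Same-numbered arrays of the groups had deviations from the group means that correlated at -0.07 and 0.08, so the numbers were not taken to pair samples.

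The members, marker lists and companion list were chosen with earlier results of these data known. Members named are the 12 brightest, the 8 of smallest p in each direction, the brightest of each class, the HCN genes and Kcnv2, and those over 2 log2 units away in the array labelled knockout replicate 3. The other genes were chosen after their values were seen. The alternatives tried were array weights, a robust fit with a variance trend, quantile normalization again, median centring, a filter at the 40th percentile, each array left out, all 6 arrays, the replicate block, other probe set rules and a threshold of 0.1. Those for the single array, and most for the 6 arrays, were added after seeing the data.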

Additional observations from a re-analysis of the deposited data

How the results depend on the processing

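Under all 15 alternatives, limma called 0 channel genes, both with 5 and with 6 arrays, and 0 to 5 members had an unadjusted p under 0.05 under the alternatives to the comparison of 5 arrays (0.726% to 6.06% of all genes, the highest share without knockout replicate 1, where 0 members did). Among all genes 2 were called, 1 with the mean of all probe sets, 0 with all 6 arrays and 1 to 8 with an array left out (1 without wild-type replicate 3, 8 without knockout replicate 1 and 8 without knockout replicate 2). The count of members whose groups do not overlap was 10. It was 5 of the 41 members that passed the filter at the 40th percentile (15.3% of the genes that passed), 5 with all 6 arrays (8.64% of all genes), 6 with the mean of all probe sets (16.1%), 6 with the most variable probe set (15.4%), 15 with quantile normalization again (17.6%), and 14 (25.7%, without wild-type replicate 2) to 38 with an array left out. Fewer arrays make overlap less likely: without wild-type replicates 1 and 3 the counts were 22 and 28 (30.4% and 29.9% of all genes), and without knockout replicates 1 and 2 they were 36 and 38 (50.9% and 51.2%). The median difference of the members moved from 0.02 to -0.06 with all 6 arrays.

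Of 410 pairs of a named gene and an alternative, 35 reversed and 375 did not, none of them called. Kcnj14 and Kcnj9 reversed in none of 15 alternatives, though Kcnj9 was 0.00 with the most variable probe set. Most alternatives could not reverse them, among them the settings that leave each difference as it was. Both knockout values of each gene lay below all wild-type ones, so leaving an array out or weighting arrays keeps the sign. The array labelled knockout replicate 3 read 4.19 for Kcnj14 and 3.80 for Kcnj9, lower still, so adding it keeps the sign too. The count of 0 reversals is therefore no measure of robustness. Kcnj14 has 1 probe set, so the other probe set rules leave it unchanged. With an array left out Kcnj14 ranged from -0.40 to -0.25 and Kcnj9 from -0.30 to -0.19. With the array labelled knockout replicate 3 included, Hcn2 (0.01), Kcnj8 (0.03), Kcnk5 (0.44) and Kcng1 (0.88) became positive. Hcn3 (-0.77), Kcna5 (-0.10), Kcnc1 (-1.28), Kcnc2 (-1.41), Kcnd3 (-1.16), Kcne2 (-2.05), Kcnh2 (-0.55), Kcnma1 (-0.47) and Kcnq3 (-0.37) became negative. Array weights turned Kcnab1 (0.01) and Kcnv2 (0.02). The mean of all probe sets turned Kcnab1 (0.06) and Kcnq1ot1 (0.03), and the most variable probe set Kcnab1 (0.15), Kcnk1 (-0.11) and Kcnq1ot1 (0.05). With an array left out, reversals came within -0.13 to 0.07 for Kcnab1, -0.13 to 0.11 for Kcnv2, -0.08 to 0.12 for Kcnc1, -0.08 to 0.22 for Kcnc2, -0.13 to 0.18 for Kcne2, -0.04 to 0.23 for Kcna5, -0.05 to 0.12 for Kcnh2 and -0.08 to 0.04 for Kcnq1ot1.

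The replicate number as a block left 0 members called, with 3 of all genes called and a median member difference of 0.05. It turned Kcnab1 (0.07) and Kcnv2 (0.05). Wild-type replicate 3 has no same-numbered knockout array among the 5. The block therefore gives the same differences as leaving that array out, and is no separate result. The correlations of same-numbered arrays, -0.07 and 0.08, gave no sign of pairing. With 2 knockout arrays they cannot exclude it.

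For the single array, the count of low members was 10 to 13 and that of high members 8 to 14 under other probe set rules, centring and values set to at least the highest Bacillus control, which were added after seeing the data. Above the 40th percentile of each array 51 members remained in wild type, against 62 above the Bacillus controls. With the mean of all probe sets 8 of the 12 brightest members were shared, and Kcnj14 stayed the brightest. Its rank was hardly open to change by this rule. Kcnj14 has 1 probe set, and the other members were already represented by their probe set of highest mean. Where a gene lies at background its differences say little about its transcript.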
